A study of Mus musculus with 13 samples.

Results

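The levels of 8 genes that act on spermatid chromatin before the histones are removed were followed: Brdt, Nutm1, Chd5, Epc1, Epc2, Hist1h1t, Hist1h2ba and Tssk6. They are 8 of the 30479 genes in the deposited table. Of these, 6 were found by symbol, and 2 stand there under newer symbols at the coordinates that GENCODE M21 gives for the listed names: Hist1h1t as H1f6 and Hist1h2ba as H2bc1. The libraries came from mice at postnatal day 25 of 3 genotypes at Wfdc15a, wild type (WT), heterozygous (Het) and knockout (KO). Wfdc15a belongs to a family of secreted proteins with a WAP four-disulfide core. Whole testis, stripped of its outer capsule, gave 2 WT, 1 Het and 3 KO libraries. Round spermatids, the haploid cells that follow meiosis, were sorted by their DNA content and gave 2 WT, 2 Het and 3 KO libraries. Strain, the altered part of the Wfdc15a locus and whether libraries came from separate animals are not stated in the labels, so the p-values measure the spread between libraries.

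In maturing spermatids most histones are replaced, by transition proteins and then by protamines. Before that, the tails of histone H4 become heavily acetylated. BRDT, a testis member of the BET family, binds acetylated H4 through bromodomains and takes part in the removal of histones, while NUTM1, a nuclear protein of spermatids, recruits the acetyltransferases p300 and CBP. EPC1 and EPC2 are subunits of the TIP60 (NuA4) acetyltransferase complex, and CHD5 is a remodeller of the chromodomain helicase family that spermatids need to exchange histones for protamines. Hist1h1t encodes the testis linker histone H1t, Hist1h2ba encodes the testis histone TH2B, and TSSK6 is a kinase of spermatids whose loss leaves histones in sperm.

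Levels are RPM values, reads scaled to the total of each library, recovered from the deposited log2 values, over library totals of 7375270 to 20927429 reads. The libraries fell into 2 sets in both cell types, split by the sign of principal component 1 (71.6% of the variance among testis libraries and 55.6% among round spermatid libraries). Set 1 held both WT libraries and KO replicate 1 of each cell type, and set 2 held the Het libraries and KO replicates 2 and 3. No label names a batch, so these sets are a feature of the values alone. The summed level of 10 Sertoli cell markers was 19.7 to 39.1 RPM in the testis libraries of set 1 and 1890 to 2033 RPM in those of set 2. The summed level of 6 stromal markers was at most 5.14 RPM in the round spermatid libraries of set 1, where 1 of the 6 reached 1 RPM, and 477 to 1059 RPM in those of set 2, where 5 or 6 did. The 8 markers of elongating spermatids summed to 1724 to 4097 RPM in testis set 1 and 319 to 472 RPM in testis set 2, and 10 markers of round spermatids summed to 2599 to 2914 RPM in round spermatid set 1 and 1685 to 2176 RPM in set 2. In testis these 10 markers summed to 620 and 679 RPM (WT), 880 RPM (Het) and 1484, 930 and 809 RPM (KO). The 10 spermatocyte markers summed to 4860 to 5788 RPM in round spermatid libraries and 4601 to 6329 RPM in testis libraries, so the sorted libraries also carried transcripts of meiotic genes. Wfdc15a itself was at 212 and 207 RPM in WT testis, 48.4 RPM in Het testis and 116, 36.8 and 44.3 RPM in KO testis. Sorted round spermatids held 267 and 234 RPM (WT), 65.0 and 71.5 RPM (Het) and 97.9, 67.4 and 48.1 RPM (KO), so all KO libraries lay below WT but overlapped Het, and reads remained in every KO library.

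**Figure D1:**
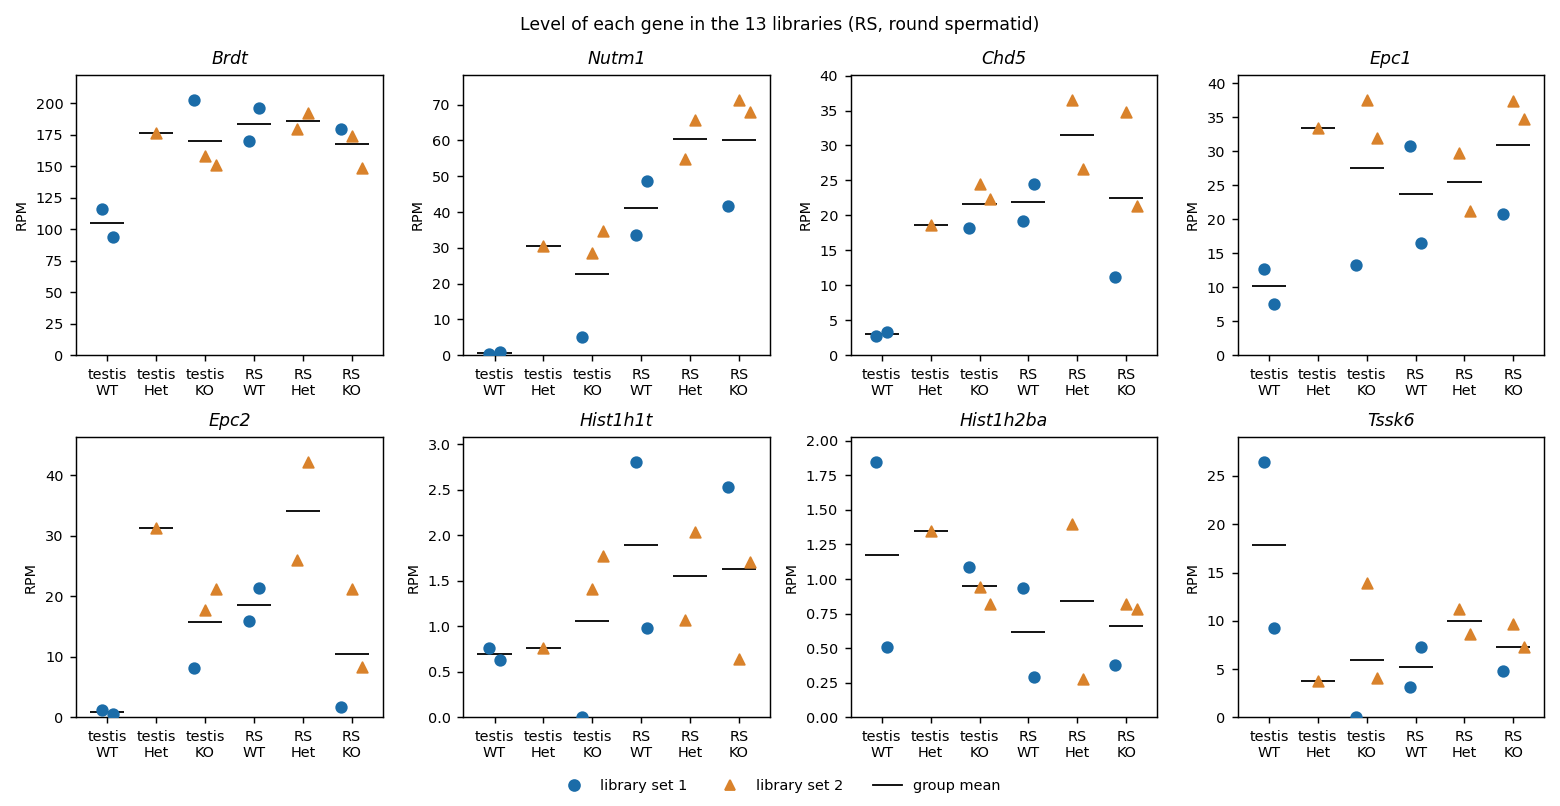
Level of each of the 8 genes in RPM (vertical axis, from 0) in the 13 libraries, by cell type and genotype; circles are libraries of set 1, triangles libraries of set 2 and bars group means. Nutm1, Chd5 and Epc2 are lower in the 2 WT testis libraries than in any other library, and Epc2 is at 1.72 RPM in round spermatid KO replicate 1.

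The acetyl-histone reader Brdt had the highest level per length of exon of the 8 and the smallest fold between its lowest and highest library. It lies on chromosome 5 from 107331159 to 107387058 on the plus strand, with 19 exons. In testis its level was 116 and 93.9 RPM (WT), 176 RPM (Het) and 202, 158 and 151 RPM (KO). Among round spermatids, the values were 169.8 and 196 RPM (WT), 179 and 192 RPM (Het) and 179, 174 and 149 RPM (KO). The WT testis libraries were the lowest of the 13. WT round spermatids exceeded WT testis by 0.80 on the log2(RPM + 1) scale (SE 0.25), which missed the threshold in limma with Benjamini-Hochberg adjustment (adjusted p = 0.0637) but passed in a fit of the 4 WT libraries alone (adjusted p = 0.0112), as did 37.5% of genes. It was 0.45 with centred libraries (adjusted p = 0.689) and 0.065 among the Het and KO libraries of set 2 (adjusted p = 0.614). The KO minus WT difference in testis was 0.69 (SE 0.32, adjusted p = 0.256), close to the median of 0.63 over all genes tested, and -0.13 (SE 0.18, adjusted p = 0.697) in round spermatids. With each library centred on its median, the testis difference turned to -0.25.

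Nutm1 had the largest difference between the WT groups among the members. It lies on chromosome 2 from 112247948 to 112259291 on the minus strand, with 7 exons. It was at 0.217 and 0.824 RPM in WT testis, 30.5 RPM in Het testis and 5.15, 28.6 and 34.8 RPM in KO testis. The round spermatid libraries held 33.6 and 48.6 RPM (WT), 54.7 and 65.9 RPM (Het) and 41.7, 71.3 and 67.9 RPM (KO). Nutm1 was thus near the limit of detection in WT testis and well above it in every round spermatid library.

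Round spermatids are a part of the testis, and in a bulk sample fewer cells of a type and less RNA per cell cannot be told apart. Between the WT groups, 1825 of 20085 genes were called higher in round spermatids (9.09%) and 480 lower (2.39%), and 3 of the 8 members were called (11.5% of genes in either direction), all higher: Nutm1, Chd5 and Epc2. With centred libraries the split was 727 higher and 455 lower. The WT round spermatid libraries lay wholly above the WT testis libraries for 6 members, against 38.6% of all genes tested. No member had all round spermatid libraries above all testis libraries, which 4% of genes had.

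The Nutm1 difference was 4.80 (SE 0.72, adjusted p = 0.00217, limma), or 4.60 above the median of all genes, and it stayed past the threshold when any of the 4 WT libraries was left out (adjusted p = 0.013 to 0.0329). Between the Het and KO libraries of set 2 the round spermatid excess of Nutm1 was smaller, 1.05 (adjusted p = 1.22e-05), in a comparison that called 58.6% of genes. Nutm1 in KO testis was 3.65 above WT (SE 0.98), with the groups not overlapping, but the adjusted p was 0.101. In round spermatids the KO minus WT difference was 0.53 (SE 0.29, adjusted p = 0.321).

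Neither KO comparison called any gene with limma: 0 of 18570 in testis (0%; 4380 at an unadjusted p under 0.05) and 0 of 18075 in round spermatids (0%; 3813 at an unadjusted p under 0.05), and with voom the counts were again 0. In testis, 5 of 8 members (Brdt, Nutm1, Chd5, Epc1 and Epc2) had all KO libraries above both WT libraries, against 28.2% of genes. In round spermatids no member had KO wholly above WT (16.6% of genes) or wholly below (19.4%), and in testis no member had KO wholly below WT (14.1%). Het against WT also called 0 genes, 0% of those tested, in testis (3674 at an unadjusted p under 0.05) and in round spermatids (4542), and voom called 0.

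These testis values depended on KO replicate 1, the only KO library in set 1. It had the fewest reads of the 13 libraries (7375270) and 15435 genes with a read, against 20115 to 22587 in the other testis libraries. The part of depth in the values was not tested. Tssk6 and Hist1h1t had no read in this library. Without it, limma called 11976 of 18378 genes (65.2%), a share near that of the members, and these 5: Nutm1 at 4.45 (adjusted p = 0.000132), Epc2 at 3.43 (0.000294), Chd5 at 2.58 (0.000577), Epc1 at 1.72 (0.00331) and Brdt at 0.56 (0.0229). All KO libraries then lay in set 2 and all WT libraries in set 1, so genotype and set cannot be told apart in that comparison. In the fit of all 13 libraries, 4153 genes passed (20.7%), with Nutm1 (adjusted p = 0.00398), Chd5 (0.00499) and Epc2 (0.0179) among them. A fit of the 3 genotypes with set as a covariate rests the KO minus WT value on KO replicate 1 alone; it called 6992 genes in testis (37.7%), including Nutm1 at 2.05, Epc2 at 2.27, Chd5 at 2.23 and Brdt at 0.95, all higher, and Tssk6 at -4.07 (adjusted p = 0.00518 to 0.0137 over the 5). In round spermatids without KO replicate 1, 5514 genes were called (30.8%), and of the members only Nutm1, at 0.77 (adjusted p = 0.0174). Most marker sums above moved with the sets, though the round spermatid marker sums of testis did not. The part of the marker sums in these differences was not tested.

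Within a set the testis differences of Nutm1 were 2.05 between KO replicate 1 and WT (set 1) and 0.045 between KO replicates 2 and 3 and Het (set 2). For Brdt they were 0.95 and -0.19. With set as a covariate, the fit compared KO with WT and Het together. No gene was called in testis (0% of 18570; 2130 at an unadjusted p under 0.05; voom 0), including Nutm1 at 1.05 (adjusted p = 0.406) and Brdt at 0.38 (adjusted p = 0.528).

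**Figure D2:**
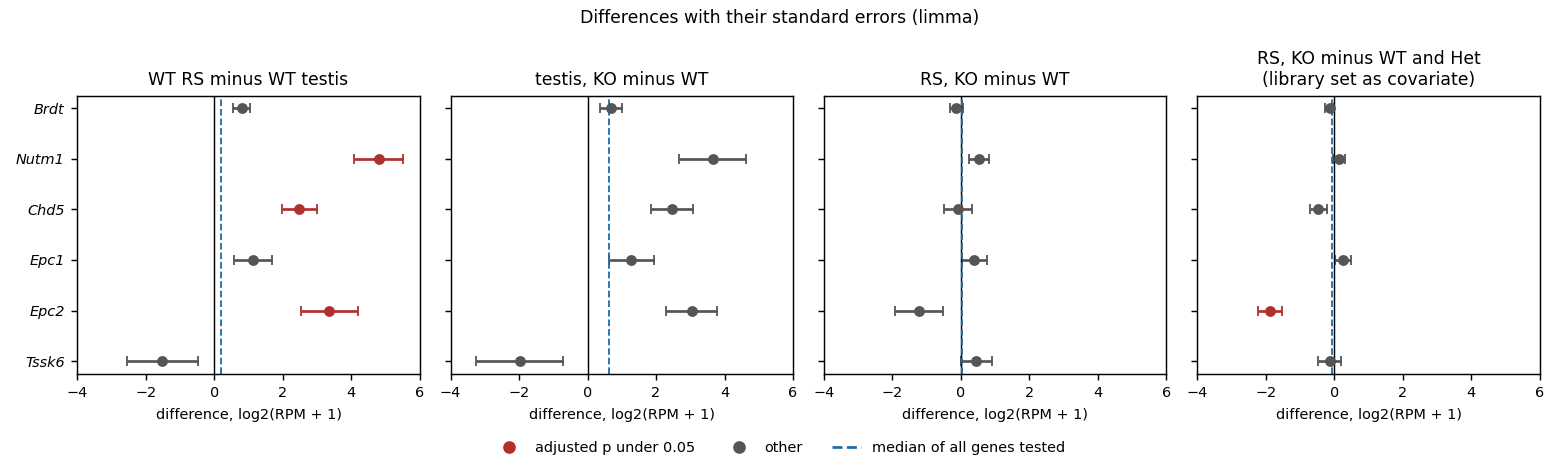
Differences on the log2(RPM + 1) scale with their standard errors from limma, for the 6 members with enough reads, in 4 comparisons; red marks an adjusted p under 0.05 and the dashed line the median of all genes tested. Nutm1, Chd5 and Epc2 are red in the comparison of WT round spermatids with WT testis, and Epc2 alone is red in the round spermatid fit with library set as a covariate.

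Of the EPC subunits, Epc1 lies on chromosome 18 from 6435951 to 6516108 on the minus strand and Epc2 on chromosome 2 from 49451486 to 49551948 on the plus strand; each has 14 exons. Epc1 was at 12.6 and 7.60 RPM in WT testis, 33.4 RPM in Het testis and 13.3, 37.5 and 32.0 RPM in KO testis. Sorted round spermatids held 30.8 and 16.5 RPM (WT), 29.7 and 21.2 RPM (Het) and 20.7, 37.4 and 34.7 RPM (KO). The 3 testis libraries of set 1 were the lowest 3 of the 13. With every library in the fit, Epc1 passed the threshold in none of these 3 comparisons: the WT round spermatid minus testis difference was 1.12 (SE 0.56, adjusted p = 0.25) and KO minus WT gave 1.28 for testis (SE 0.65, adjusted p = 0.292) and 0.39 for round spermatids (SE 0.37, adjusted p = 0.546). The library method keeps no strand, and 7.20% of the Epc1 exon bases are shared with the antisense gene Gm28529, whose level was at most 7.32 RPM.

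Epc2 was at 1.19 and 0.634 RPM in WT testis, 31.3 RPM in Het testis and 8.14, 17.7 and 21.3 RPM in KO testis. Among round spermatids, the values were 15.9 and 21.3 RPM (WT), 26.0 and 42.1 RPM (Het) and 1.72, 21.1 and 8.38 RPM (KO). The WT testis libraries were the lowest of all, and in round spermatids KO replicate 1 was the lowest while KO replicate 2 was level with a WT library.

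Epc2 was 3.36 higher in WT round spermatids than in WT testis (SE 0.84, adjusted p = 0.0249). This call was lost when any of the 4 WT libraries was left out (adjusted p = 0.105 to 0.157) and with voom (4.36, adjusted p = 0.0726). Among the set 2 libraries the difference was -0.27 (adjusted p = 0.405). The KO minus WT difference was 3.04 in testis (SE 0.75, adjusted p = 0.0872) and -1.23 in round spermatids (SE 0.70, adjusted p = 0.328), and the difference between these effects was -4.28 (SE 1.08, adjusted p = 0.0651; 2.13% of genes passed), the 0.0548th percentile of all genes. With every library and no covariate or block, no member passed in that test of the difference between cell types, where Chd5 was at -2.55 (adjusted p = 0.07) and Nutm1 at -3.12 (0.107). With set as a covariate, again resting on KO replicate 1 of each cell type, 26.3% of genes passed, and with them Epc2 (-5.11, adjusted p = 0.000213), Chd5 (-3.13, 0.000963), Nutm1 (-2.003, 0.0102), Brdt (-0.98, 0.0188) and Tssk6 (4.05, 0.00789). Without testis KO replicate 1, with 31.1% of genes called, it passed for Epc2 (-4.67, adjusted p = 0.00471), Chd5 (-2.67, 0.00674) and Nutm1 (-3.92, 0.000471), and without round spermatid KO replicate 2 for Epc2 (-4.99, 0.0484), with 0.846% called.

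In round spermatids with set as a covariate, 19 of 18075 genes were called, all lower in KO (0.105%), and Epc2 was among them: it fell by 1.88 (SE 0.35, adjusted p = 0.0432), the 0.0277th percentile. KO lay below the other libraries inside each set, by 2.84 between KO replicate 1 and WT and by 1.24 between KO replicates 2 and 3 and Het, a pattern that 11.4% of genes had. All 12 alternatives gave a lower level in KO, from -2.35 to -1.24, but the call held in 1 of them, without KO replicate 2 (adjusted p = 0.00215; 0.594% of genes called), and was lost in the other 11, with an adjusted p up to 0.586 without KO replicate 1. No other member was called in this fit, and none had KO above the other libraries in each set of round spermatids (5.71% of genes) or below them in each set of testis (16.6%). With the 3 genotypes apart and set as a covariate, a value that rests on KO replicate 1, Epc2 was at -2.84 (adjusted p = 0.0258; 0.492% of genes called).

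Chd5 lies on chromosome 4 from 152338651 to 152390194 on the plus strand, with 42 exons. It was at 2.82 and 3.36 RPM in WT testis, 18.6 RPM in Het testis and 18.2, 24.5 and 22.4 RPM in KO testis. The round spermatid libraries held 19.2 and 24.5 RPM (WT), 36.5 and 26.6 RPM (Het) and 11.2, 34.7 and 21.4 RPM (KO). KO replicate 1, although in set 1, was level with the set 2 libraries in testis and the lowest round spermatid library.

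Chd5 was 2.48 higher in WT round spermatids than in WT testis (SE 0.51, adjusted p = 0.0104). The call was lost without testis WT replicate 1 (0.077), round spermatid WT replicate 1 (0.0635) or round spermatid WT replicate 2 (0.097), these being adjusted p. In set 2 the difference was 0.41 (adjusted p = 0.107). KO testis exceeded WT testis by 2.46 (SE 0.60, adjusted p = 0.0866), and in round spermatids the difference was -0.09 (SE 0.42, adjusted p = 0.921). All 9 other CHD genes were higher in KO than in WT testis and none was called. Their median was 2.11, against 0.63 over all genes. The share of all genes higher in KO is not given here. In the testis fit of KO against WT and Het with set as a covariate, 7 of the 9 were higher. Their median there was 0.61, against -0.066 over all genes. Chd5 was the only member with KO above the other testis libraries in each set (12.9% of genes), by 2.23 in set 1 and 0.31 in set 2, but the fit with set as a covariate gave 1.27 (SE 0.52, adjusted p = 0.398).

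The 250 bases before the RefSeq start of Chd5 and Epc2 (build GRCm38.p6, 5′ to 3′ on the plus strand) are shown because both genes were called higher in WT round spermatids than in WT testis. They cover chr4:152338401-152338650 and chr2:49451236-49451485. Capitals mark matches on either strand to 4 motifs: the TATA box TATAAA, the CCAAT box CCAAT, the GC box GGGCGG and the cAMP response element TGACGTCA.
Chd5: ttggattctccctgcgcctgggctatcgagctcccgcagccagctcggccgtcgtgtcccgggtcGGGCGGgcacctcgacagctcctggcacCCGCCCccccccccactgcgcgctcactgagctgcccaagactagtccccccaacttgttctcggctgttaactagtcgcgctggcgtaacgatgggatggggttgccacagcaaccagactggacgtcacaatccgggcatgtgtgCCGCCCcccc
Epc2: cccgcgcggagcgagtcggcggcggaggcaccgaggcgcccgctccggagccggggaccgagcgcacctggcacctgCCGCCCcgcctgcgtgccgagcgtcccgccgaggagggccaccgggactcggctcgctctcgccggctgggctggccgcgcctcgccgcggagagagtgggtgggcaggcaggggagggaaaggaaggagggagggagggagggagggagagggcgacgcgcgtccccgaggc
The Chd5 window held 3 GC boxes and the Epc2 window 1, and neither held another of these motifs. Among 27025 promoter windows of this length, 32.9% held a GC box. The Epc2 window was 79.2% G and C with 36 CpG pairs, and the Chd5 window was 67.2% with 21.

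Both testis histone genes were near the floor in every library. Hist1h1t, a single exon on chromosome 13 from 23695814 to 23696725 on the plus strand, was at 0.759 and 0.634 RPM in WT testis, 0.768 RPM in Het testis and 0, 1.41 and 1.77 RPM in KO testis. Sorted round spermatids held 2.80 and 0.981 RPM (WT), 1.07 and 2.03 RPM (Het) and 2.53, 0.644 and 1.70 RPM (KO). The 0 in testis KO replicate 1 allows up to 0.407 RPM, the level of 3 reads, for counting error only. Hist1h2ba, a single exon on chromosome 13 from 23933773 to 23934156 on the minus strand, was at 1.84 and 0.507 RPM in WT testis, 1.34 RPM in Het testis and 1.08, 0.942 and 0.823 RPM in KO testis. Among round spermatids, the values were 0.935 and 0.294 RPM (WT), 1.40 and 0.277 RPM (Het) and 0.382, 0.820 and 0.781 RPM (KO).

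At most 53 reads stood behind a Hist1h1t value and at most 34 behind a Hist1h2ba value, so no differences are given for them. The smallest adjusted p over their 8 and 5 comparisons was 0.554 and 0.700. Messages of most histone genes end without a poly(A) tail, and the library method copies polyadenylated RNA; its part in these low values was not tested. Of 65 other genes of the replication-dependent histone clusters, 9 to 17 per library reached 1 RPM, and the highest gene in a library was H2ac18 or Hist1h2bp, at 18.6 to 110 RPM. Near-identical copies can share reads in this family.

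The windows before the starts of the 2 testis histone genes (GRCm38.p6, each on its gene's strand) are shown for their contrast in base composition with the 2 above. They cover chr13:23695561-23695810 and chr13:23934157-23934406, and capitals mark the same motifs.
Hist1h1t: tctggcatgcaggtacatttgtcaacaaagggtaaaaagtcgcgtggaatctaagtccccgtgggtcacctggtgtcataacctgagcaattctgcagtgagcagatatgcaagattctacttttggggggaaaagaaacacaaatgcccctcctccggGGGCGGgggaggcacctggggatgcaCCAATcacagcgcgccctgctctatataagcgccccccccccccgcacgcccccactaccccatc
Hist1h2ba: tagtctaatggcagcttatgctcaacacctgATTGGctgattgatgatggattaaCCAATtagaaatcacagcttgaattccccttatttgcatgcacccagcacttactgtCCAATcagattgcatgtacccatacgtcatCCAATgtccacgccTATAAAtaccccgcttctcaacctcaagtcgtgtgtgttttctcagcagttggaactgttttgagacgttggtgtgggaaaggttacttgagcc
The Hist1h1t window held 1 CCAAT box and 1 GC box, and was 56.8% G and C with 10 CpG pairs. Only exact matches were counted, so its stretch tatataag was not counted as a TATA box. The Hist1h2ba window held 4 CCAAT boxes and 1 TATA box, and was 44.4% G and C with 5 CpG pairs. Of all windows, 34.5% held a CCAAT box, 12.97% the TATA box and 1.62% the cAMP response element, which none of these 4 held.

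The kinase gene Tssk6, a single exon on chromosome 8 from 69902184 to 69903518 on the plus strand, was highest in WT testis replicate 1. It was at 26.4 and 9.25 RPM in WT testis, 3.74 RPM in Het testis and 0, 13.9 and 4.05 RPM in KO testis. The round spermatid libraries held 3.15 and 7.26 RPM (WT), 11.3 and 8.68 RPM (Het) and 4.78, 9.67 and 7.31 RPM (KO). WT and KO overlapped in both cell types. WT round spermatids were 1.52 below WT testis (a difference of -1.52, SE 1.04, adjusted p = 0.429), and KO minus WT was -1.99 in testis (SE 1.26, adjusted p = 0.366) and 0.45 in round spermatids (SE 0.45, adjusted p = 0.583). The 0 in testis KO replicate 1 again allows up to 0.407 RPM. Without strand, 28.1% of the Tssk6 exon bases are shared with Ndufa13 and 1.12% with Yjefn3 on the other strand. Ndufa13 was at 194 and 161 RPM in WT testis, 31.1 to 71.3 RPM in the other testis libraries and 23.8 to 64.4 RPM in round spermatids, and its part in the Tssk6 values was not tested.

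**Figure D3:**
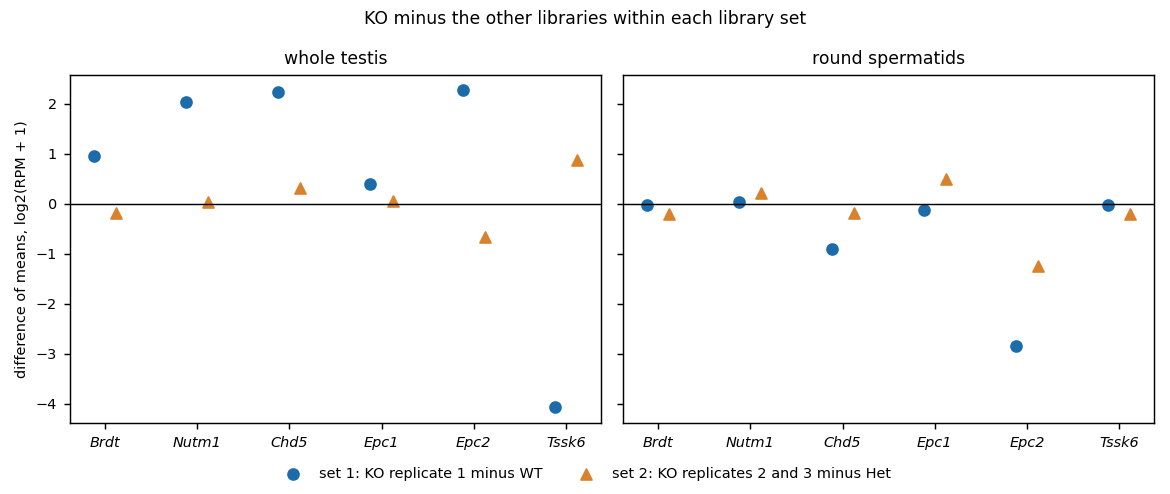
KO minus the other libraries inside each library set, as a difference of means on the log2(RPM + 1) scale, for testis and round spermatids; circles are set 1 (KO replicate 1 minus WT) and triangles set 2 (KO replicates 2 and 3 minus Het). Epc2 is below 0 in both sets of round spermatids, at -2.84 and -1.24, and Chd5 above 0 in both sets of testis, at 2.23 and 0.31.

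Other genes of the same pathways were followed in fixed lists. Between WT round spermatids and WT testis, 9.09% of all genes tested were called higher and 2.39% lower, with a median of 0.20. List medians in this comparison were 1.62 for other BET genes, 1.06 for TSSK genes and 0.74 for other CHD genes. They were 0.39 for other regulators, -0.25 for histone variants and -0.36 for histone cluster genes. Of 16 other TIP60 complex genes, 4 were called higher in round spermatids, among them Ing3 (1.93, adjusted p = 0.00486), Morf4l1 (1.06, 0.0172) and Ep400 (1.75, 0.0444), and 1 lower, the catalytic subunit Kat5 (-1.22, 0.0285); the list's median was 0.70. Both Brd3 (2.73, adjusted p = 0.00111) and Brd2 (1.62, 0.00112), ubiquitous relatives of Brdt, were called higher. Among 9 acetyltransferase genes, 2 were called higher: Kat2b (2.20, adjusted p = 0.0016) and Crebbp, which encodes CBP (2.51, 0.0367). Their median was -0.27. None of 9 other CHD genes was called; Chd4, a subunit of NuRD, was at 2.32 (adjusted p = 0.0748). Of 6 TSSK genes with the co-chaperone Tsacc, Tssk4 alone was called higher (2.21, adjusted p = 0.00278). Among the set 2 libraries, Ing3, Morf4l1, Brd2, Kat2b and Tssk4 were again wholly higher in round spermatids than in testis. Ep400, Kat5 and Brd3 overlapped between the cell types in set 2. Crebbp went the other way there, at 21.2 to 32.7 RPM in round spermatids and 33.7 to 37.3 RPM in testis.

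Of 13 histone variants 1 was called, H2az1, encoding H2A.Z, lower in round spermatids (-1.94, adjusted p = 0.000639). Of 19 tested histone cluster genes, H4c4 was called lower (-2.28, adjusted p = 0.042). The 5 transition protein and protamine genes had a median of -2.06 and none was called; in the testis libraries of set 1, which include both WT libraries, the summed markers of elongating spermatids, which include 4 of these genes, were also high; their part was not tested. Of 17 other spermatid chromatin regulators, 4 were called higher. They were Psme4, a proteasome activator that acts on acetylated histones (3.04, adjusted p = 0.00156), Dot1l (3.02, 0.00718), Suv39h2 (2.08, 0.0218) and Huwe1 (2.00, 0.035). Among the set 2 libraries Psme4 and Suv39h2 were again wholly higher in round spermatids, and Dot1l overlapped between the cell types. Huwe1 was lower in round spermatids of set 2, at 20.9 to 42.5 RPM against 58.7 to 67.6 RPM in testis. Neither KO against WT comparison called any gene, so none of the 9 lists held a call. In testis the KO minus WT median was 2.57 (other BET genes), 2.11 (other CHD genes), 1.92 (acetyltransferases), 1.44 (other regulators) and 1.26 (TIP60 genes). It was 0.03 (histone variants), -0.11 (histone cluster), -0.39 (TSSK genes) and -3.50 (transition proteins and protamines), against 0.63 over all genes. In round spermatids the transition proteins and protamines were at -1.70 and the other lists at -0.47 to 0.42, against 0.03 over all genes. With set as a covariate in round spermatids, Psme4 alone was called (-0.80, adjusted p = 0.00393). Its round spermatid level was 685 and 646 RPM (WT), 521 and 492 RPM (Het) and 346, 330 and 292 RPM (KO), so KO lay below both other genotypes without overlap. Among all genes, 19.4% had KO wholly below WT and 11.4% had KO below the other libraries in each set. In testis Psme4 was higher in KO than in WT, at 70.0 and 90.7 RPM (WT), 182 RPM (Het) and 425, 182 and 132 RPM (KO).

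Per kilobase of exon, the round spermatid medians over 7 libraries ran from Brdt (35.1 RPM per kb) through Nutm1 (14.7), Epc1 (6.64), Tssk6 (5.48), Epc2 (4.50), Chd5 (2.56) and Hist1h2ba (2.03) to Hist1h1t (1.87). The ranges of Brdt and Nutm1 did not overlap each other or that of Epc1, and from Epc1 downward each range overlapped its neighbour's. In testis Brdt again had the highest median (30.2 RPM per kb), above the range of its neighbour Epc1 (5.06). Its testis range overlapped that of Tssk6, which reached 19.8 in WT replicate 1, against 18.4 for Brdt in WT replicate 2. From Epc1 downward each range overlapped the next.

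**Figure D4:**
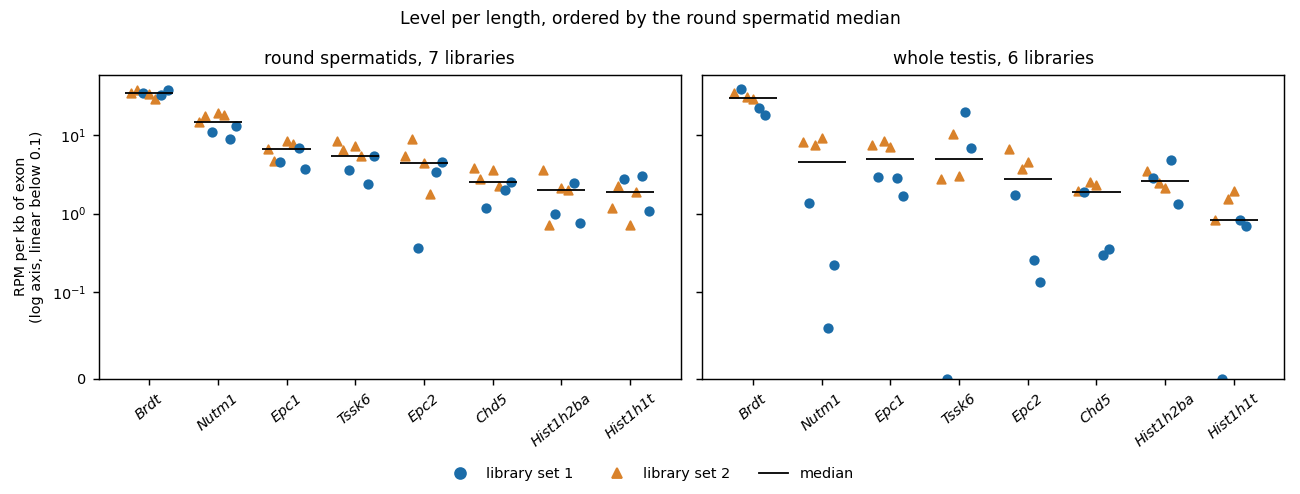
Level per length, in RPM per kilobase of exon on a log axis that is linear below 0.1, in 7 round spermatid and 6 testis libraries; genes are ordered by their round spermatid median, and bars are medians. Brdt stands highest in both panels, with medians of 35.1 and 30.2, and the testis values of Nutm1 and Tssk6 spread widely.

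Over all 13 libraries, the genes whose log2 levels ran most like a member's were, by Pearson's r among 15460 genes, Prkaca (0.989), Ulk2 (0.988) and Sec23ip (0.987) for Nutm1. For Chd5 they were Eif4g3 (0.986), Cep164 (0.981) and Akap12 (0.978), and for Epc2 Atrnl1 (0.951), Golgb1 (0.947) and Nav2 (0.947). For Brdt they were Ccdc183 (0.975), Fcnaos (0.967) and Septin4 (0.951), for Epc1 Rnpc3 (0.954), Tmem127 (0.953) and Man2c1 (0.948), and for Tssk6 Ccdc159 (0.932), Gpr19 (0.910) and Surf2 (0.908). Among the members, Nutm1 with Chd5 (0.889) and Chd5 with Epc2 (0.885) were the most alike. All these values share the 2 library sets and the low WT testis libraries, and are given as a description.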

How the data were processed

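RNA was copied by Smart-seq2, which takes up polyadenylated transcripts and records no strand. The authors deposited log2 RPM per gene; per the submitters' processing notes they used FastQC 0.11.8, Trim Galore 0.6.6, HISAT2 2.1.0 and build mm10, and the counting program is not given in the sources used here. The values were turned back into whole reads (99.885% to 99.997% of values whole within 0.01 read; 0.9 read stands for none) and RPM. Genes reaching 1 RPM in 2 or more of the fitted libraries entered, as log2(RPM + 1), limma 3.58.1 in R 4.3.3 (lmFit, eBayes with trend, two-sided, Benjamini-Hochberg, threshold 0.05); on this scale the fold changes of weakly expressed genes come out too small. Each cell type was fitted apart; comparisons across cell types used all 13 libraries. All 8 members passed the filter in testis and in the fit of all libraries, and 7 in round spermatids (not Hist1h2ba). Members with fewer than 60 reads in their best library got no differences, a limit set after their values were seen. The alternative voom on recovered reads called 0 genes for KO against WT in either cell type and 2520 between the WT groups. Simulated data were run through the round spermatid KO fits and the comparisons across cell types, but not through the testis fits. A library set effect was simulated only for the round spermatid fit with set as a covariate. The outcome is not given here. Named genes were all members, up to 4 per list by smallest unadjusted p, and 3 per member by likeness; a listed gene is not reported here. Members and lists were chosen with earlier results of these data known. Exons came from GENCODE M21, and promoter windows from RefSeq, where 6 of 8 members matched. Replicates with the same number were not treated as paired: their correlations across cell types were -0.023 for WT and 0.28 to 0.50 for KO.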

Additional observations from a re-analysis of the deposited data

Results flagged for a closer look

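Brdt was singled out because all 3 KO libraries lay above the WT mean in testis and all 3 below the WT mean in round spermatids. The share of all genes with this pattern is not given here. In round spermatids KO replicates 1 and 2 (179 and 174 RPM) lay above WT replicate 1 (169.8 RPM). KO replicate 1 was at 7.495 on the log2(RPM + 1) scale, beside a WT mean of 7.521. The difference between the KO effects was -0.82 on the log2(RPM + 1) scale (limma, SE 0.32), which did not pass over all genes (adjusted p = 0.217). With centred libraries it was 0.0011, and with library set as a covariate, where the value rests on KO replicate 1 of each cell type, it was -0.98 and passed (adjusted p = 0.0188).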

How the results depend on the processing

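For the 6 members with differences, 393 of the values under alternatives kept their direction and side of the threshold, 32 came to pass it, 20 lost it and 17 changed sign; the cause was not tested where a setting below moved a value. Counts of genes called were as follows. For testis KO against WT the count of 0 became 6992 with library set as a covariate, 4153 in the fit of all 13 libraries and 152 with the replicate block, and ranged from 0 to 11976 when a library was left out. For round spermatid KO against WT, 0 became 4 with centred libraries and 89 with set as a covariate, and ranged from 0 to 5514. Round spermatid Het against WT gave 440 with centred libraries. WT round spermatids against WT testis gave 1182 with centred libraries, 11129 in set 2 and 5954 in the 4 WT libraries, with 670 to 1161 when a library was left out, against 2305. The difference of KO effects gave 0 with centred libraries, 5275 with set as a covariate and 0 to 6211 when a library was left out, against 428. The testis fit with set as a covariate gave 0 to 7123 when a library was left out. The round spermatid fit with set as a covariate gave 3 with a pseudocount of 0.1 RPM, 0 without a filter, 5 with centred libraries, 6 with voom, 8 with the transcript length trend removed (an alternative chosen after seeing the data) and 0 to 105 when a library was left out, against 19. Changes of sign among members, none past the threshold, were these. With centred libraries Brdt was at -0.25 in testis KO against WT, 0.0011 in the difference of KO effects and 0.0021 in the round spermatid covariate fit, where Tssk6 was at 0.0025. With set as a covariate Epc1 was at -0.12 and Tssk6 at -0.020 in round spermatid KO against WT. In set 2, round spermatid minus testis was -0.12 for Epc1, -0.27 for Epc2 and 0.55 for Tssk6. Leaving out a library gave, in round spermatid KO against WT, -0.46 to 0.32 for Chd5, -0.035 to 0.82 for Epc1 and -0.046 to 0.95 for Tssk6. In the testis covariate fit it gave -0.19 to 0.95 for Brdt, -0.66 to 2.27 for Epc2 and -4.07 to 0.87 for Tssk6, and in the round spermatid covariate fit -0.31 to 0.018 for Tssk6. The labels do not say what a replicate number marks, and the numbers were not taken as pairs because the WT pairs did not deviate together, while the KO pairs did. With 2 WT libraries per cell type, both WT pairs give the same correlation by construction. KO libraries of set 2 also correlated across numbers. Testis KO replicate 2 with round spermatid KO replicate 3 gave 0.345, and testis KO replicate 3 with round spermatid KO replicate 2 gave 0.266. These values therefore cannot decide pairing, and whether the KO numbers mark a shared source was not tested. Of 3 testis KO libraries, KO replicates 1 and 3 but not 2 correlated best with the round spermatid KO library of their number. With the replicate block the difference of KO effects passed for Epc2 (adjusted p = 0.0344) and Nutm1 (adjusted p = 0.0463), with 590 genes called; round spermatid KO against WT still called 0. Testis Het against WT could not be fitted without its only Het library.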
